A study of Mus musculus with 3 samples.

Results

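The genes described here are 7 members of the S100 family: S100a4, S100a6, S100a8, S100a9, S100a10, S100a11 and S100a13. They were taken by symbol from the 32285 genes in the files, and their RNA was counted in marker-gated blood cells and in RNA outside cells. S100 proteins are small calcium-binding proteins with EF-hand motifs that mostly act as dimers. Inside cells they bind cytoskeletal, membrane and signalling proteins, and some are released by injured or activated cells and act on receptors of other cells. In blood, S100a8 and S100a9 are best known from neutrophils, where their protein pair, calprotectin, is among the most abundant proteins of the cytosol.

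Single mononuclear cells from the blood of C57BL/6 mice had been profiled with 10x 3' chemistry, as 1 library for each of 3 groups. These were young mice with PBS, aged mice with PBS and aged mice with AA (ascorbic acid, by the series title), each treated for 1 month. The labels give neither ages nor how many mice a library holds. There is thus no replicate check and no test, and each interval below is a 95% interval for counting error only. Values in threes are in the order young, aged, aged+AA. Aged over young and aged+AA over aged both use the aged library and are not independent of each other.

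Depths were 64496639, 94944551 and 80424480 unique molecular identifiers (UMIs, 1 for each captured RNA molecule), and 8771, 9760 and 10989 cells were kept. Of these, 94.2%, 83.1% and 91.3% entered 1 of 5 classes gated by UMIs of marker genes, none of them an S100 gene. The gates held 5371, 1993 and 4308 T cells, 2500, 3986 and 5228 B cells, 325, 246 and 192 natural killer (NK) cells, 55, 1086 and 125 monocytes and 15, 799 and 180 neutrophils, so young neutrophils are described and not compared. Every marker of a class reached 20 CPM in it, CPM being the UMIs of a gene scaled to the same total of UMIs in each class. At most 36 cells of a class sat at the gate's minimum of 3 marker UMIs. Pairs of libraries shared 21 to 29 barcodes, against 12.6 to 15.8 by chance. Free RNA was measured in 45000 low-count barcodes of each library, and could supply 0.908% to 3.69% of a class's UMIs.

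S100a8 and S100a9, the calprotectin subunits, were neutrophil genes in these libraries. S100a8 stood at 127332, 105658 and 78914 CPM in neutrophils, and S100a9 at 127823, 102103 and 88052 CPM. The pair alone took 25.5%, 20.8% and 16.7% of all neutrophil UMIs. Their RNA was close to equal there, with 0.996 (0.970 to 1.02), 1.03 (1.03 to 1.04) and 0.896 (0.884 to 0.909) S100a8 UMIs for each S100a9 UMI. In the aged library S100a8 stood 569 times as high (542 to 598) in neutrophils as in monocytes.

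All 7 genes lie on chromosome 3 within 3050.21 kb (GRCm38, GENCODE M21). S100a13 (chr3:90514435-90524581), S100a4 (chr3:90603771-90606045), S100a6 (chr3:90612882-90624181) and S100a8 (chr3:90668978-90670035) are on the forward strand, S100a9 (chr3:90692632-90695721) is on the reverse strand, and S100a11 (chr3:93520488-93526287) and S100a10 (chr3:93555080-93564643) lie farther along on the forward strand. S100a8 and S100a9 are 22.6 kb apart with no annotated gene between them. S100a13 has 4 exons in its first consensus coding transcript and the others have 3. S100a4 overlaps the annotated gene Gm42674 by position, strand not considered, and whether this affects its counts was not tested.

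Upstream sequence is shown for S100a8 and S100a9, whose levels moved together across cell classes (Pearson r of 0.991 over 14 class sums that share libraries and depth), and for S100a4, which was high in monocytes and low in neutrophils. RefSeq (GRCm38.p6) promoters were matched by symbol for 6 of the 7 genes, and the 250 bases before the start were searched on both strands. Capitals mark TATAAA and, on either strand, GAGGAA, which holds the core of sites of the myeloid factor PU.1. S100a8 is given upstream of its annotated exons (chr3:90668821-90668977, forward strand) and as 30 bases around TATAAA (chr3:90669029-90669058). S100a9 is chr3:90695722-90695971 on the reverse strand and S100a4 chr3:90603520-90603769 on the forward strand.
S100a8 upstream: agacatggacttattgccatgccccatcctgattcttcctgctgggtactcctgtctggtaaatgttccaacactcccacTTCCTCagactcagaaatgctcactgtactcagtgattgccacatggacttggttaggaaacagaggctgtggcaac
S100a8 around TATAAA: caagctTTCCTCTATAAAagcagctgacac
S100a9 upstream: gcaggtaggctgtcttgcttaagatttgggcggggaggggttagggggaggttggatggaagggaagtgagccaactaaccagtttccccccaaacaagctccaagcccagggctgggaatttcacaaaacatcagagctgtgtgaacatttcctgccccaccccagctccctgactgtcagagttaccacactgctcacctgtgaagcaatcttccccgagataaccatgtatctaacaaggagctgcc
S100a4 upstream: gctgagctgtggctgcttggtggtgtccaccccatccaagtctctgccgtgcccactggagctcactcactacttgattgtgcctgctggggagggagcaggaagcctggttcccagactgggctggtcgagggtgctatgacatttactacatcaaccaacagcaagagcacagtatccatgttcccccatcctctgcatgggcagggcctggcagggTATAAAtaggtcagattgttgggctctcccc

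TATAAA began at position -30 from the RefSeq start in S100a8 and at -31 in S100a4, and was in neither strand of the other 4 windows. It stood in 12.4% of all 32851 windows of this length. GAGGAA stood at -170 and -36 in S100a8 and at -153 in S100a11, and in 23.3% of all windows. TTNNGNAA, a form of the site of C/EBP factors, stood in S100a8 and S100a9 and in 36.8% of all windows. GGGCGG stood in S100a9 and S100a11 and in 32.7% of all windows. S100a6 and S100a13 held none of these. Such matches describe letters only.

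In lymphocytes, levels of S100a8 and S100a9 followed the free RNA of each library. T cells held S100a8 at 2.62, 71.0 and 10.2 CPM, where free RNA could give 3.43, 74.8 and 10.7 CPM. S100a9 was at 2.44, 93.7 and 12.98 CPM in T cells, where free RNA could give 3.06, 87.7 and 14.3 CPM. B cells held S100a8 at 2.57, 97.3 and 11.6 CPM, where free RNA could give 4.39, 98.9 and 14.2 CPM, and NK cells at 1.86, 109 and 12.46 CPM, where it could give 4.61, 109 and 16.3 CPM. Measured and possible levels thus lay close together in the aged library. In the young and aged+AA libraries these measured levels lay below the possible ones, as at 1.86 against 4.61 CPM in young NK cells (2 UMIs). Free RNA itself held S100a8 at 378, 3469.6 and 654 CPM and S100a9 at 337, 4070.2 and 874 CPM.

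At these levels the ratios of S100a8 in T, B and NK cells were 27.1, 37.8 and 58.7 for aged over young, and 0.144, 0.119 and 0.114 for aged+AA over aged. The part of free RNA in them, which is itself an estimate from haemoglobin, was not tested further. The summed neutrophil markers in T cells moved in the same order, at 2.41, 42.8 and 6.95 CPM. The S100a8 to S100a9 ratio of the aged library was 0.852 (0.829 to 0.877) in free RNA, 0.757 (0.685 to 0.837) in T cells and 0.779 (0.725 to 0.836) in B cells, below the 1.03 (1.03 to 1.04) of its neutrophils. Aged NK cells had 1.00 (0.744 to 1.34), which includes it. In the young library the intervals of free RNA, T and B cells all included the neutrophil value of 0.996. In aged+AA, free RNA (0.749) and B cells (0.6075) lay below the 0.896 of neutrophils, while the T-cell interval (0.667 to 0.933) included it. With each cell thinned to 1000 UMIs, S100a8 was seen in 0.298%, 7.55% and 1.26% of T cells (1.32%, 28.8% and 5.64% unthinned) and in 0.120%, 10.1% and 1.32% of B cells.

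**Figure D1:**
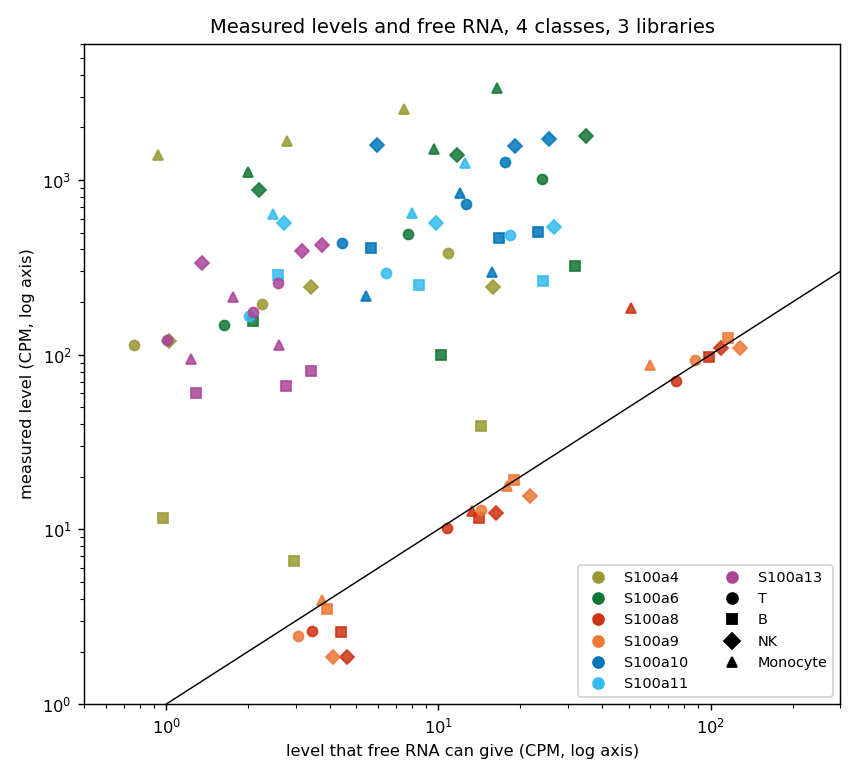
Measured level in a class (CPM, log axis) against the level free RNA can give there (CPM, log axis), for T, B and NK cells and monocytes; each point is 1 gene in 1 class and library, values of 0 are left out, and the line marks equal levels. S100a8 and S100a9 lie near or below the line in lymphocytes, as S100a8 in aged T cells at 71.0 measured and 74.8 possible CPM, while S100a8 in aged monocytes lies above it at 186 CPM.

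In aged monocytes S100a8 lay above free RNA. It had 0 UMIs in young monocytes, where a floor of 3 UMIs stands at 11.9 CPM, and stood at 186 CPM in aged and 12.8 CPM in aged+AA monocytes, where free RNA could give 4.202, 51.2 and 13.3 CPM. S100a9 was at 3.96, 87.5 and 17.6 CPM, where free RNA could give 3.74, 60.04 and 17.8 CPM. Aged classical monocytes held 2.70 (2.44 to 3.00) S100a8 UMIs for each S100a9 UMI and aged non-classical monocytes 0.976 (0.813 to 1.17), so the former lay above the ratio of free RNA. The signal was uneven: 20 of 1086 aged monocytes, those with at least 10 S100a8 UMIs (a limit chosen after the values were seen), held 49.3% of them. These cells held the granule gene Lcn2 at 408 against 46.8 CPM in the other aged monocytes and the neutrophil markers at 286 against 169 CPM. Wfdc21 stood at 345 against 32.0 CPM, Retnlg at 37.8 against 13.9 CPM and Csf3r at 105 against 94.8 CPM. Camp, Ngp and Ltf, markers of immature neutrophils, had 0, 1 and 1 UMIs against 30, 28 and 11, too few to compare. The part of neutrophil RNA in this result was not tested. No such cell was found among the 55 young and 125 aged+AA monocytes, too few cells to read anything from its absence.

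Within neutrophils S100a8 and S100a9 were higher in immature cells, those with at least 3 UMIs of the granule genes Camp, Ngp and Ltf. S100a8 stood at 143272, 169628 and 163473 CPM in immature and at 60342, 74879.6 and 48197 CPM in mature neutrophils. Immature over mature ratios were 2.37 (2.22 to 2.54), 2.27 (2.25 to 2.28) and 3.39 (3.32 to 3.46) for S100a8 and 2.04 (1.92 to 2.17), 2.15 (2.13 to 2.16) and 3.15 (3.09 to 3.21) for S100a9. Immature cells numbered 8, 108 and 16, so these levels rest on few cells outside the aged library. For aged+AA over aged, S100a8 stood at 0.747 times (0.739 to 0.755) and S100a9 at 0.862 times (0.853 to 0.871) in all neutrophils, and at 0.644 and 0.752 times in mature ones. All 4 values lie within 2-fold.

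S100a6 and S100a11 were also high in neutrophils. S100a6, also called calcyclin, stood there at 3319, 8099.6 and 5754 CPM. S100a11, a partner of annexin A1, stood at 4026, 7351 and 6580.1 CPM, which was 6.32, 5.87 and 10.2 times its monocyte level. Unlike the calprotectin genes, S100a11 was lower in immature than in mature neutrophils, at 0.445 (0.354 to 0.562), 0.650 (0.628 to 0.673) and 0.690 (0.630 to 0.754) times. For aged+AA over aged neutrophils, S100a6 stood at 0.710 times (0.682 to 0.740) and S100a11 at 0.895 times (0.861 to 0.930).

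S100a4, a partner of non-muscle myosin that is linked to cell motility, set monocytes apart from neutrophils. Monocytes held it at 1385, 2544 and 1675 CPM. Neutrophils had 0 UMIs in the young, 125 CPM in the aged and 4.32 CPM (2 UMIs) in the aged+AA library. Of the aged neutrophil UMIs, 77.9% lay in 9 cells with at least 10 each. Those cells held monocyte markers at 1849 against 188 CPM in the other aged neutrophils, and their median depth was 12931 against 2216 UMIs; whether they were mixed cells was not tested.

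Among lymphocytes the order of S100a4 differed by library. Young T and NK cells held 114 CPM (109.9 to 118) and 120.2 CPM (100.4 to 143), intervals that overlap. Aged T cells held 384 CPM (372 to 396) and aged NK cells 243 CPM (211 to 278). Aged+AA T cells held 194 CPM (188 to 199) and NK cells 245 CPM (208 to 286), so T cells were above NK cells in the aged library and below them after AA. B cells were lowest at 11.6, 39.0 and 6.58 CPM, of which free RNA could give 8.37%, 36.9% and 45.0%. S100a6 and S100a11 were each highest in neutrophils. Monocytes lay above NK cells in the aged library, with ratios of 1.88 (1.79 to 1.98) and 2.33 (2.13 to 2.57), but the intervals include 1 for S100a6 in the aged+AA library (1.08, 0.985 to 1.19) and for S100a11 in the young (1.13, 0.944 to 1.35) and aged+AA libraries (1.15, 0.992 to 1.32). T cells lay above B cells for both genes in the aged and aged+AA libraries. In the young library T over B was 0.949 (0.895 to 1.01) for S100a6 and 0.583 (0.556 to 0.611) for S100a11.

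**Figure D2:**
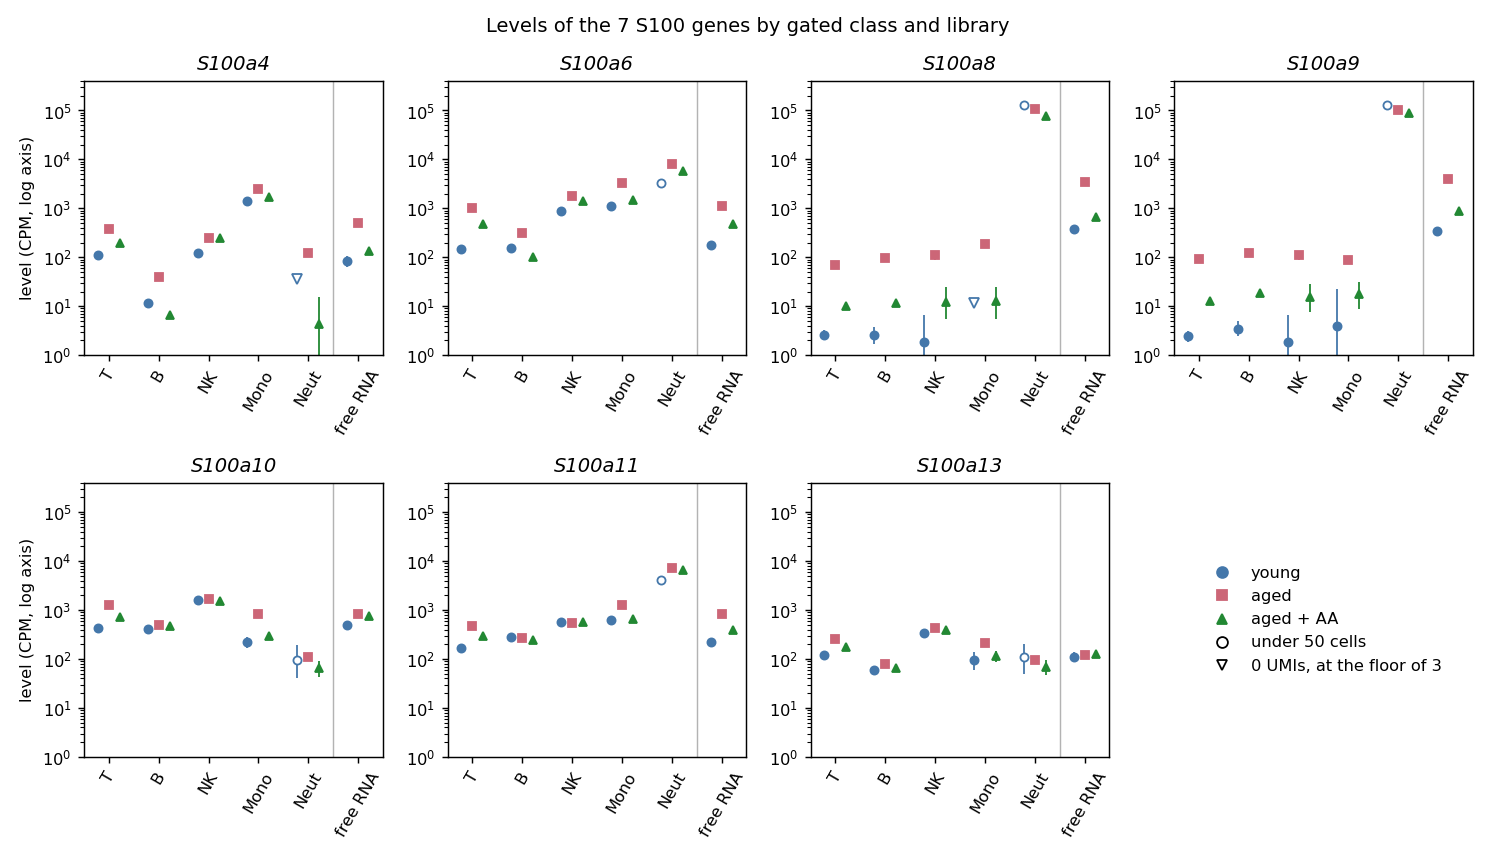
Level of each gene (CPM, log axis) in 5 gated classes and in free RNA, for the 3 libraries; bars are 95% Poisson intervals, open symbols mark classes under 50 cells, and open triangles pointing down mark 0 UMIs drawn at the floor of 3. S100a8 and S100a9 reach 78914 to 127823 CPM in neutrophils, S100a4 is highest in monocytes, and S100a10 and S100a13 in NK cells.

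Aged over young addresses how blood cells differed with age. In T cells all 7 genes rose at least 2-fold, against 15% of the 11799 genes tested, with S100a8 and S100a9 at levels close to those that free RNA could give. The median gene of T cells shifted by 0.39 on the log2 scale, and relative to it 6 of the 7 were called, against 7.62% of genes. S100a6 went from 149 to 1017 CPM, a ratio of 6.83 (6.59 to 7.09), or 5.21 relative to the median gene. S100a4 went from 114 to 384 CPM, a ratio of 3.37 (3.22 to 3.54), or 2.57. With at most 5% mitochondrial UMIs in place of 10%, these ratios were 4.47 and 2.01, and as a mean over cells S100a4 had 5.10. Mitochondrial genes held 5.15%, 3.09% and 4.36% of T-cell UMIs, so the 5% limit lay below the young share and above the others. Ribosomal genes held 41.2%, 34.2% and 38.3%, so the make-up of the scaled total also differed by library. In T, B and NK cells and monocytes 0 members were 2-fold lower, against 2.79%, 2.25%, 2.31% and 9.71% of genes.

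S100a10, the partner of annexin A2 at the membrane, went from 436 to 1260.1 CPM in T cells (ratio 2.89, 2.82 to 2.96). S100a11 went from 166 to 483 CPM (ratio 2.91, 2.79 to 3.03). S100a13, which takes part in the release of interleukin-1 alpha and FGF1, went from 121 to 257 CPM (ratio 2.13, 2.02 to 2.25). That last call was lost relative to the median gene (1.63), without ribosomal and mitochondrial genes in the total (1.82) and at the 5% limit (1.98). Free RNA could give 0.669% to 3.78% of the T-cell level of S100a4, S100a6, S100a10, S100a11 and S100a13.

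At equal depth, the share of T cells with these transcripts also differed. Thinned to 1000 UMIs, S100a6 was seen in 3.23%, 34.3% and 19.99% of T cells (5.85%, 51.3% and 34.9% unthinned), and S100a4 in 2.20%, 16.5% and 8.33% (3.69%, 27.6% and 14.2% unthinned). B cells, lowest in S100a4 among lymphocytes, showed S100a4 in 0.481%, 1.92% and 0.537% after thinning. Median depths were 4974, 4507 and 5379.5 UMIs in T and 3409, 3046 and 3553 UMIs in B cells, and thinning left out 8, 6 and 10 T cells. S100a4 and S100a6 met in the same cells. Of thinned T cells with an S100a4 UMI, 76.3%, 75.2% and 69.6% also had one of S100a6, against 1.58%, 26.2% and 15.5% of T cells without.

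T cells were then split by naive and memory genes. CD8 T cells with at least 2 UMIs of Ccl5, Cxcr3, Itgb1, Tbx21, Eomes and Gzmk, here called memory cells, made up 19.5%, 62.7% and 59.2% of CD8 T cells. Naive ones, with at least 3 UMIs of Lef1, Ccr7, Igfbp4 and Dapl1 and none of the memory genes, made up 64.8%, 24.9% and 26.7%. Among CD4 T cells memory cells made up 6.90%, 43.2% and 38.2% and naive cells 78.3%, 27.0% and 37.6%. The memory share was lower in the young library than in the others, while the aged (59.1% to 66.3%) and aged+AA intervals (57.0% to 61.3%) of the CD8 share overlap. The part of this make-up in the T-cell levels was not tested.

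S100a4 and S100a6 were higher in memory than in naive cells of each library. S100a6 stood at 5.91, 30.2 and 7.35 CPM in naive and at 250.3, 1132 and 658 CPM in memory CD8 T cells, ratios of 42.3 (30.8 to 59.8), 37.5 (26.5 to 54.9) and 89.4 (60.03 to 139.7). S100a4 had memory over naive ratios of 21.2 (15.4 to 30.0), 31.2 (16.9 to 65.2) and 72.2 (35.0 to 180) there, on 42, 10 and 7 naive UMIs. Its aged over young ratio in naive CD8 T cells was 1.52, or 0.112 with free RNA subtracted. S100a10 was present in naive CD8 T cells too, at 319.7, 436 and 391 CPM, with ratios of 1.94, 2.78 and 2.09. S100a11 had 1.44, 2.68 and 1.88 and S100a13 1.59, 2.04 and 1.77. S100a8 had 0.437 (0.0820 to 1.51), 0.982 (0.737 to 1.32) and 0.762 (0.503 to 1.17), intervals that include 1.

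Memory CD4 T cells held more S100 RNA than memory CD8 T cells. S100a4 stood at 1090.3, 1433 and 1049 CPM in memory CD4 T cells, 8.28, 4.87 and 6.77 times the memory CD8 level, and S100a6 was 5.37, 2.43 and 2.25 times as high. S100a10 stood at 2129, 2920.2 and 1966 CPM, above its NK level, with memory over naive CD4 ratios of 8.59 (7.87 to 9.38), 7.18 (6.33 to 8.17) and 5.74 (5.19 to 6.36). S100a11 had memory over naive CD4 ratios of 10.8, 8.58 and 10.2.

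**Figure D3:**
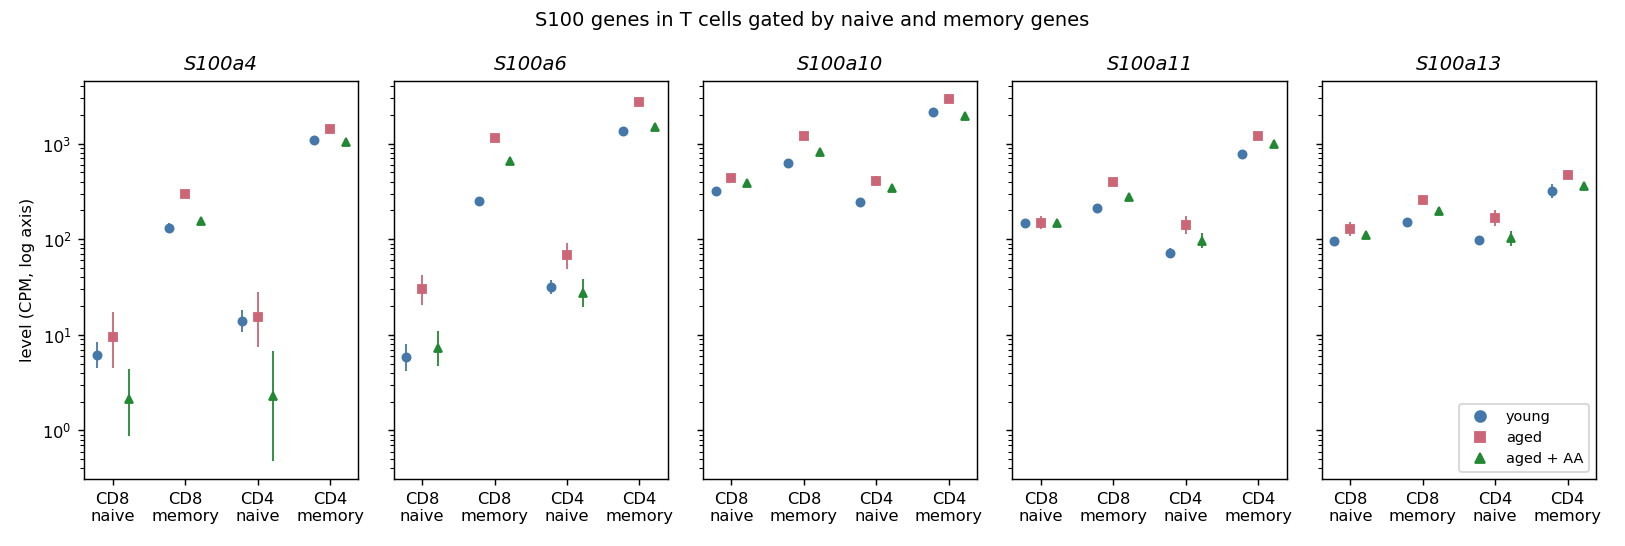
Level (CPM, log axis) of 5 S100 genes in CD8 and CD4 T cells gated by naive and memory genes in the 3 libraries; bars are 95% Poisson intervals. S100a4 and S100a6 show the widest gap between naive and memory cells, such as S100a6 at 5.91 and 250.3 CPM in young CD8 T cells, while S100a10, S100a11 and S100a13 are present in both.

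Within memory CD8 T cells, 4 of 7 genes were at least 2-fold higher in the aged library, against 12.1% of genes: S100a4, S100a6, S100a8 and S100a9. No young level of S100a8 and S100a9 was left there after free RNA was subtracted. S100a6 had a ratio of 4.52 (4.16 to 4.92) and S100a4 of 2.23 (1.97 to 2.54), while S100a10 (1.95), S100a11 (1.87) and S100a13 (1.71) were within 2-fold. The S100a4 ratio was 1.17 at the 5% mitochondrial limit, 1.77 relative to the median gene, both below 2, and 4.96 in cells with no marker UMI of another class. For S100a6 these were 2.82, 3.58 and 11.54. In memory CD4 T cells 3 genes were called, against 11.3%, with S100a6 at 2.05 times (1.88 to 2.23) and S100a4 at 1.31 times. The others called were S100a8 and S100a9, and S100a8 fell to a ratio of 0 with free RNA subtracted. That S100a6 call was lost relative to the median gene (1.81), without ribosomal and mitochondrial genes in the total (1.89), with no haemoglobin limit (1.91) and in cells with no marker UMI of another class (1.995).

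Naive T cells held little S100a4 and S100a6. In naive CD8 T cells 3 genes were called higher in the aged library, against 7.77% of genes: S100a8, S100a9 and S100a6. Subtracting free RNA left no young level of S100a8 and S100a9 in naive CD8 or naive CD4 T cells. For S100a6 the naive CD8 call rested on 32 aged and 40 young UMIs, and free RNA could give 64.3% of the aged level. S100a11 stood at 149, 149 and 147 CPM there, an aged over young ratio of 1.00 (0.843 to 1.19). In naive CD4 T cells 3 genes were called, against 9.57%: these were S100a6, S100a8 and S100a9. S100a4 stood at 14.1, 15.3 and 2.30 CPM there (57, 10 and 3 UMIs), an aged over young ratio of 1.09 (0.496 to 2.15), and S100a6 at 31.6, 67.5 and 27.6 CPM, a ratio of 2.13 (1.48 to 3.03). That S100a6 call was lost relative to the median gene (1.75), with free RNA subtracted (1.47), at the 5% mitochondrial limit (1.87), with no haemoglobin limit (1.90) and without ribosomal and mitochondrial genes in the total (1.97), and its ratio ran from 1.41 to 3.41 over the settings tried. The S100a4 ratio ran from 0.271, with free RNA subtracted, to 1.91.

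A few T cells held most S100a4 RNA. T cells with at least 10 S100a4 UMIs, a limit and gene choice made after the values were seen, numbered 82, 110 and 162 and held 89.5%, 65.6% and 72.7% of its T-cell UMIs. They held more Itgb1, an integrin gene of memory cells, than the other T cells (391 against 39.1, 899 against 262 and 785 against 144 CPM), more of the chemokine receptor gene Ccr2 (317 against 1.92, 179.8 against 28.7 and 132 against 14.9 CPM) and less of the naive gene Ccr7 (91.7 against 500.3, 55.7 against 409 and 118 against 549 CPM). Monocyte markers stood at 1.43 against 11.9, 39.8 against 38.7 and 18.7 against 19.5 CPM. B-cell markers stood at 48.7 against 13.3, 46.1 against 48.0 and 67.2 against 50.5 CPM. NK markers stood at 12.9 against 7.41, 27.1 against 43.3 and 38.2 against 34.5 CPM. Neutrophil markers stood at 10.0 against 2.21, 50.9 against 42.2 and 7.46 against 6.93 CPM. Median depths were 7496.5, 4949 and 5468 UMIs against 4960, 4488 and 5374.5 UMIs. The part of other classes in this result was not tested. Trdc, the constant gene of the delta T-cell receptor, stood at 392 against 25.6, 14.3 against 24.2 and 162 against 27.1 CPM, so these cells differed in make-up between libraries.

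B and NK cells had fewer members called than T cells. In aged over young B cells 4 genes were at least 2-fold higher, against 8.67% of genes, and in NK cells 4, against 5.53%: in both S100a4, S100a6, S100a8 and S100a9. Of these, S100a8 and S100a9 had no ratio in either class with free RNA subtracted, since no young level was left. S100a6 in B cells stood at 157, 319.8 and 99.8 CPM (aged over young 2.04, 1.92 to 2.16), or at 1.68 times relative to the median gene and 6.21 times at the 5% mitochondrial limit. S100a4 in B cells had a ratio of 3.36 (2.74 to 4.15), or 9.53 at that limit, 5.18 as a mean over cells and 2.30 to 2.35 with free RNA subtracted in 3 ways and the total rescaled. In NK cells S100a6 stood at 870.4, 1793 and 1397 CPM (2.06, 1.90 to 2.24) and S100a4 at 120.2, 243 and 245 CPM (2.02, 1.61 to 2.53). Both NK calls were lost relative to the median gene, at 1.93 and 1.89 times.

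S100a10, S100a11 and S100a13 stayed within 2-fold in aged over young B and NK cells. S100a10 was highest in NK cells among the 5 classes, at 1576, 1723 and 1556 CPM, and stood at 406, 501 and 465 CPM in B cells. S100a11 stood at 285, 264 and 249.5 CPM in B cells, a ratio of 0.925 (0.880 to 0.972), and at 564, 536 and 564 CPM in NK cells, a ratio of 0.951 (0.841 to 1.08). S100a13, too, had its highest class level in NK cells (336, 425 and 389 CPM), above T cells (121, 257 and 175 CPM) and B cells (60.3, 80.9 and 66.1 CPM).

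S100a6 in B cells came from few cells. B cells with at least 10 S100a6 UMIs, again chosen after the values were seen, numbered 30, 84 and 44 and held 78.5%, 79.5% and 64.0% of its UMIs. They held more Zbtb32, a transcription factor gene of memory and innate-like B cells, than other B cells (134 against 3.60, 202 against 8.05 and 219 against 7.75 CPM), more Bhlhe41, a factor gene of B-1 cells (148 against 21.4, 124 against 38.0 and 193 against 27.3 CPM), and less Ighd, the IgD gene of naive B cells (285 against 752, 238 against 1017 and 117 against 811 CPM). They were also deeper, with medians of 8622, 7517.5 and 9236 UMIs against 3396, 3034 and 3543 UMIs. Their S100a4 UMIs numbered 90, 288 and 11, against 23, 260 and 127 in the other B cells. Monocyte markers stood at 21.1 against 6.04, 69.1 against 30.6 and 62.7 against 7.41 CPM and T-cell markers at 123 against 30.5, 74.4 against 30.4 and 113 against 47.1 CPM, and the part of either in the result was not tested. Jchain, the antibody joining chain gene of plasma cells, stood at 3.52 against 40.8, 2188 against 597 and 4251 against 347 CPM, so these cells too differed in make-up between libraries.

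In monocytes 5 of 7 genes were at least 2-fold higher in the aged library, against 20.8% of genes: S100a6, S100a8, S100a9, S100a10 and S100a13. S100a10 stood at 218, 838 and 298 CPM (aged over young 3.85, 2.95 to 5.12) and S100a6 at 1112, 3371 and 1511 CPM (3.03, 2.70 to 3.42). S100a13 had a ratio of 2.25 (1.51 to 3.53), S100a11 of 1.96 (1.68 to 2.31) and S100a4 of 1.84 (1.65 to 2.05). Make-up moved with this comparison. Monocytes with more UMIs of Ly6c2, Ccr2, F13a1, Chil3, Fn1 and Vcan than of non-classical genes, called classical, numbered 5, 660 and 21, or 9.09%, 60.8% and 16.8% of the class. Median depths were 4053, 8368 and 4186 UMIs.

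Several members were higher in classical than in non-classical monocytes. S100a10 stood at 87.3, 96.6 and 96.1 CPM in non-classical and at 855, 1059 and 782 CPM in classical cells, ratios of 9.80 (5.44 to 18.3), 10.97 (9.48 to 12.8) and 8.14 (5.70 to 11.9). S100a6 was 5.23, 4.04 and 4.72 times and S100a4 3.92, 2.40 and 2.75 times as high in classical cells, of which the young and aged+AA libraries had few. Non-classical cells could be compared for aged+AA over aged, where 2 of 7 genes, S100a8 and S100a9, were called lower, against 4.56% of genes. Their aged+AA levels were gone with free RNA subtracted. S100a10 there had a ratio of 0.995 (0.689 to 1.41), S100a4 of 0.900 (0.812 to 0.995), S100a6 of 0.706 (0.623 to 0.799) and S100a11 of 0.873 (0.754 to 1.01). Over all monocytes the S100a10 ratio was 0.355 (0.305 to 0.411).

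**Figure D4:**
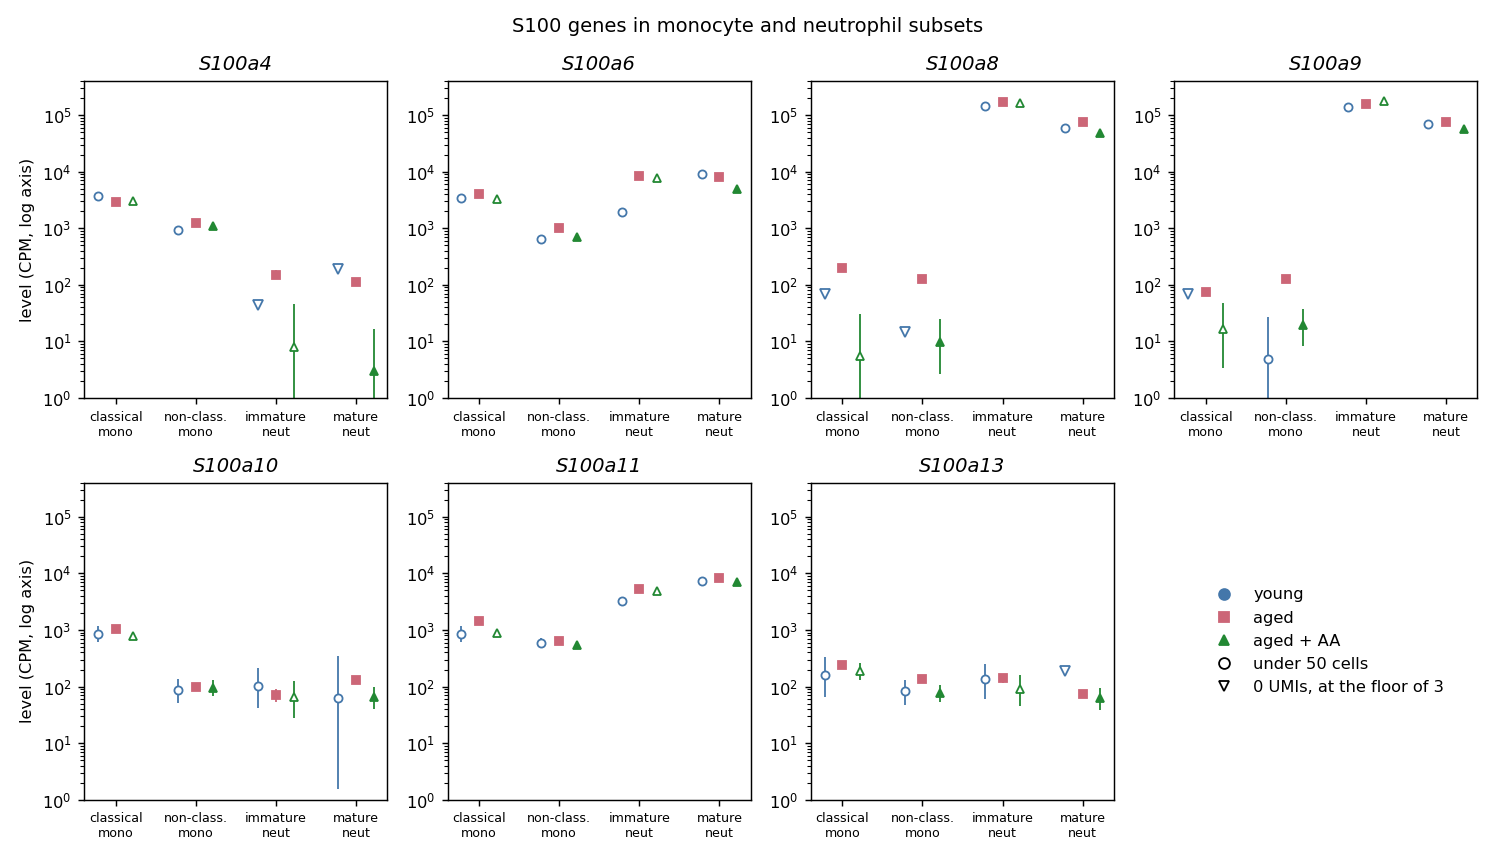
Level (CPM, log axis) of the 7 genes in classical and non-classical monocytes and in immature and mature neutrophils; bars are 95% Poisson intervals, open symbols mark subsets under 50 cells and open triangles pointing down mark 0 UMIs drawn at the floor of 3. S100a10 is 8.14 to 10.97 times as high in classical as in non-classical monocytes, and S100a8 is 2.27 to 3.39 times as high in immature as in mature neutrophils.

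Aged+AA over aged addresses how blood cells of old mice differed after AA. In T cells 3 of 7 genes fell at least 2-fold, against 4.59% of genes: S100a6, S100a8 and S100a9. The levels of S100a8 and S100a9 were close to those that free RNA could give. S100a6 had a ratio of 0.481 (0.469 to 0.494), or 0.553 relative to the median gene, which ends the call. S100a4 had 0.505 (0.484 to 0.527), S100a10 0.579 (0.566 to 0.592), S100a11 0.605 (0.583 to 0.628) and S100a13 0.682 (0.649 to 0.717). In T, B and NK cells, monocytes and neutrophils 0 members were 2-fold higher, against 1.65%, 1.56%, 2.12%, 6.59% and 3.8% of genes.

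Within memory CD8 T cells 2 of 7 genes, S100a8 and S100a9, were called lower, against 3.55% of genes. Subtracting free RNA left no aged level of S100a8 there. S100a4 stood at 0.527 times (0.482 to 0.575), S100a6 at 0.581 times (0.556 to 0.607) and S100a10 at 0.673 times (0.646 to 0.701) the aged level. The S100a4 ratio was 0.340 in cells with no marker UMI of another class. The S100a6 level of 658 CPM in these cells lay between 1132 CPM in the aged and 250.3 CPM in the young library. In memory CD4 T cells S100a6 stood at 0.537 times (0.507 to 0.570) and S100a4 at 0.732 times (0.680 to 0.788). In naive CD8 T cells S100a10 stood at 0.896 times (0.805 to 0.999) and S100a11 at 0.984 times (0.820 to 1.19).

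In B cells 4 genes were called lower, against 3.31% of genes, with S100a4 at 0.169 times (0.139 to 0.203) and S100a6 at 0.312 times (0.296 to 0.329), while S100a10 stood at 0.930 times (0.902 to 0.959) and S100a11 at 0.945 times (0.906 to 0.986). The few B cells rich in S100a6 held 288 of 548 aged and 11 of 138 aged+AA S100a4 UMIs. In NK cells 2, S100a8 and S100a9, were called lower, against 3.86%, with S100a4 at 1.01 times (0.814 to 1.24) and S100a6 at 0.779 times (0.717 to 0.847). Subtracting free RNA left no aged level of S100a8 in B cells or of S100a9 in NK cells. In monocytes 4 genes were called, against 9.24%, with S100a10 at 0.355 times and S100a6 at 0.448 times (0.420 to 0.478). In neutrophils 1 gene was called, against 7.27%: S100a4, with 303 aged and 2 aged+AA UMIs, and the 9 aged cells above held most of the former. Differences between classes were not tested.

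**Figure D5:**
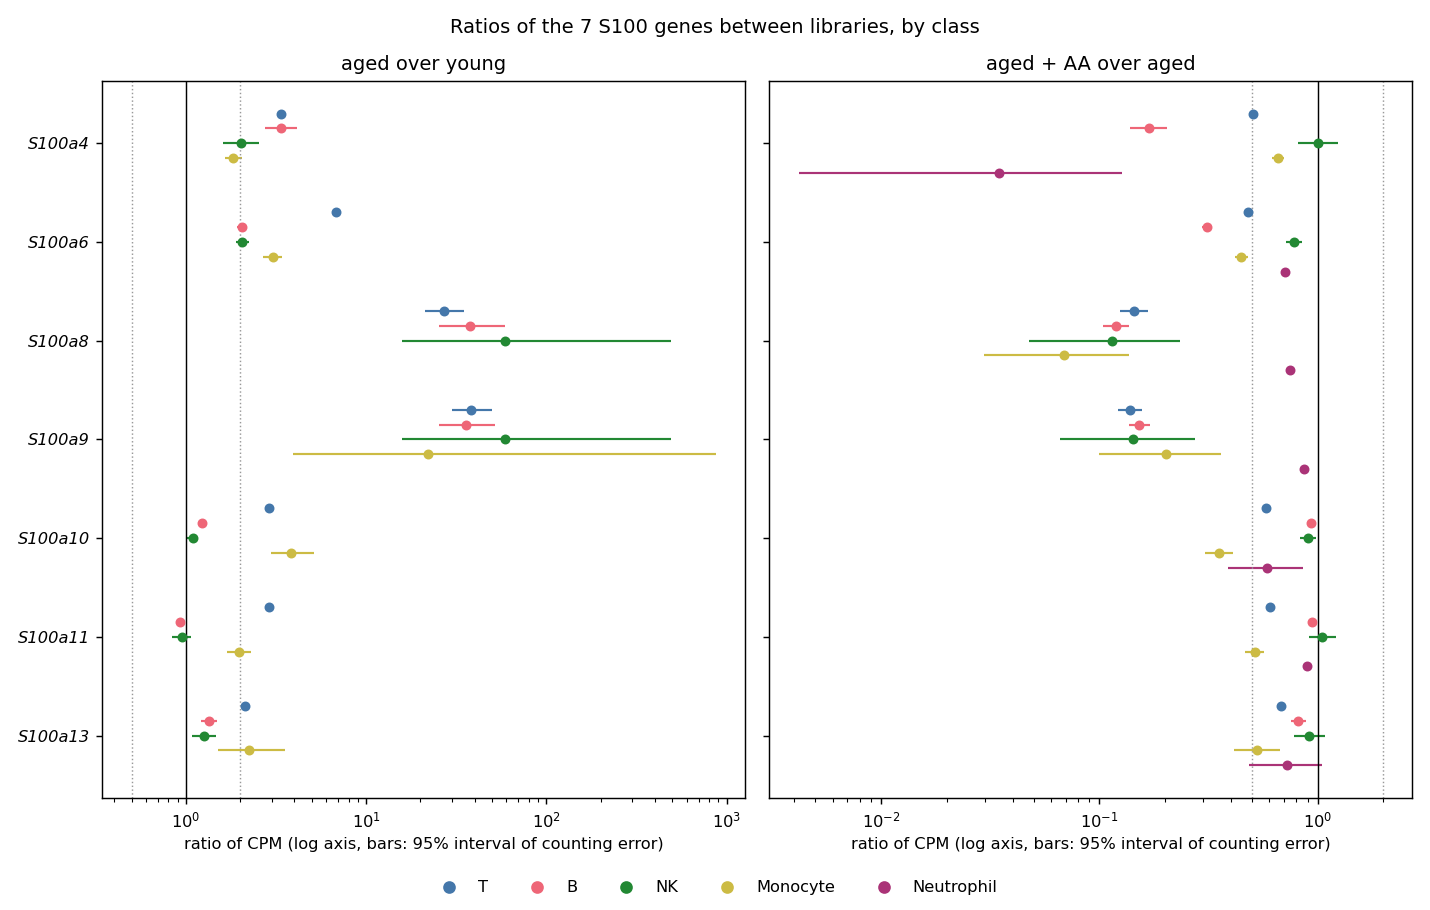
Ratio of CPM (log axis) of each gene in aged over young (left) and aged+AA over aged cells (right), by class, with 95% conditional binomial intervals; dotted lines mark 2-fold, young neutrophils are not compared, and S100a8 in monocytes has no aged over young point because the young value is 0. T-cell ratios of the 7 genes run from 2.13 to 38.4 on the left and from 0.138 to 0.682 on the right, while S100a11 in B cells lies at 0.925 and 0.945.

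Of 11 other genes whose symbol starts with S100, 2 had at least 20 UMIs in each comparison: S100a1 and S100pbp, which encodes a binding protein of S100P and no S100 protein. S100a1 stood at 31.7, 44.9 and 32.7 CPM in NK cells and at 0.673, 1.44 and 0.924 CPM in T cells. Of 19 partners and receptors of S100 proteins 15 could be compared in T cells, and 8 were at least 2-fold higher and 0 lower in the aged than in the young library, where 15% and 2.79% of all genes were. Among the 8 was Cd14, on 25 against 2 UMIs. The 15 genes had a median log2 ratio of 1.28 against 0.39 over all genes. The list was chosen by hand with earlier results of these data known, so its counts and medians, here and below, only describe it. Anxa2, the annexin that S100a10 binds, stood at 22.6, 90.9 and 67.5 CPM in T cells (aged over young 4.02, 3.62 to 4.45). Ahnak, a giant scaffold protein that binds this complex, stood at 68.2, 377 and 239 CPM (5.53, 5.23 to 5.85). Anxa1, the partner of S100a11, stood at 1.31, 12.47 and 4.22 CPM (9.52, 6.54 to 14.2). Aged neutrophils and monocytes held 3231 and 3382 UMIs of Anxa1 and 1468 and 2553 of Cd14, against 121 and 25 in aged T cells. What free RNA could give of the partners and receptors was not computed. Myh9, the non-muscle myosin heavy chain bound by S100a4, stood at 295, 415 and 308 CPM (1.40, 1.35 to 1.46), and Cacybp, the calcyclin-binding protein, at 95.7, 97.9 and 101 CPM.

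For aged+AA over aged T cells 4 of these genes were lower and 0 higher, against 4.59% and 1.65% of all genes, with a median log2 ratio of -0.43 against -0.20. The 4 were Anxa1, Ly96, Cd14 and Alcam, again without a free RNA part computed. Anxa1 had a ratio of 0.338 (0.258 to 0.443), Anxa2 of 0.742 (0.684 to 0.806) and Ahnak of 0.634 (0.608 to 0.660). In NK cells, which held Anxa2 at 787, 644 and 807 CPM, 0 of 11 were called in either comparison; of all NK genes 5.53% and 2.31% were higher and lower for aged over young, and 2.12% and 3.86% for aged+AA over aged. Among receptors, Tlr4, a calprotectin receptor, stood at 0, 20.96 and 28.1 CPM in neutrophils, and its co-receptor Cd14 at 923, 603 and 923 CPM. The young values rest on 15 cells, in which 3 UMIs stand at 35.9 CPM, so the Tlr4 value of 0 cannot be told apart from the others. Emb, a reported receptor of S100a8 and S100a9, stood at 1071, 646 and 657 CPM in T cells and at 87.3, 28.3 and 36.8 CPM in B cells, where the aged over young ratio was 0.324 (0.287 to 0.365).

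Over the 14 sums of a class in a library with at least 50 cells, the gene most like S100a8 and S100a9 was Retnlg (Pearson r of 0.984 and 0.986), itself a neutrophil marker of the gate, followed by Lcn2 for S100a8 (0.976) and Mmp9, another marker, for S100a9 (0.978). S100a4 was closest to Hsd17b4 (0.935), Cln8 (0.933) and Ccr2 (0.930). S100a6 was closest to Mrpl33 (0.969), S100a10 to Fam173a (0.986), S100a11 to Grina (0.982) and S100a13 to Lgals1 (0.974). Among the members, S100a6 and S100a11 had an r of 0.890, S100a10 and S100a13 of 0.804, and S100a4 and S100a6 of 0.359. These sums share libraries, free RNA and depth.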

How the data were processed

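RNA of single blood mononuclear cells was measured in 3 libraries, grouped by the labels. The authors deposited raw UMI counts for each gene and barcode, from Cell Ranger 4 per the file headers. Seurat 3.1.0 and mm10 stand in the submitters' processing notes; their roles are not given in the sources used here. Members, gene lists and gates were chosen with earlier results of these data known.

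The tools were scipy 1.17.1 and numpy 2.4.6 under Python 3.11.15. Barcodes were called as cells when they reached a fraction of 0.1 of a reference depth, the 99th percentile over the deepest 5000, or had 500 UMIs and a profile unlike that of free RNA (false discovery rate 0.01, 10000 draws). Cells with under 250 genes or over 10% mitochondrial UMIs were dropped, as were 365, 421 and 465 doublets (Scrublet, scanpy 1.11.5). A class required 3 UMIs over its own markers, no other class above the larger of 1 UMI and 20% of these, and haemoglobin of 5% or less. CD8 T cells had at least 2 UMIs of Cd8a and Cd8b1 and none of Cd4, CD4 T cells the reverse with 1 UMI of Cd4, and a monocyte subset had a lead of 2 UMIs. Of the planned naive markers, 1 is not reported here, so the naive gate was run without it, a change made after the values were seen.

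Counts were summed by class and library and scaled to CPM. Intervals were exact: Poisson for levels, conditional binomial for ratios, binomial for shares. A gene was called at 2-fold or more with at least 20 UMIs over both libraries, and only classes with 50 cells in each library were compared. Each molecule is counted at its 3' end, so no length scaling was applied. Barcodes ranked 45001 to 90000 gave free RNA, and its part in a class came from haemoglobin, which made up 9.97%, 26.8% and 11.49% of it. All 7 members are named, with the genes of highest Pearson correlation of log2(CPM + 1) among 11840 genes with at least 100 UMIs, and list genes with the most UMIs or largest ratios.

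The ratio step was checked on simulated T-cell counts (aged over young, 11799 genes): genes made with 2.5-, 4-, 0.4- and 0.25-fold changes came out at medians of 2.50, 3.98, 0.390 and 0.239. Alternatives covered calling, filters, gates, scaling and free RNA. Figures used matplotlib 3.10.9.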

Additional observations from a re-analysis of the deposited data

Results flagged for a closer look

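S100a11 lay on opposite sides of 1 between classes for aged over young. Its ratio was 2.91 in T cells and 1.96 in monocytes but 0.925 in B cells. This difference was not tested, since each group is 1 library.

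Signal also appeared in cells outside the 5 compared classes. In 35 aged dendritic cells S100a6 stood at 2595 CPM, and in 82 aged basophils S100a10 stood at 1706 CPM. No young value is given for either gate. In the 1533 aged cells of no gated class S100a8 stood at 3456 CPM, close to the 3469.6 CPM of free RNA in that library. Their summed neutrophil markers stood at 1316 CPM. The haemoglobin of these cells stood above that of free RNA, so no free RNA part can be given for them.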

How the results depend on the processing

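No paired analysis was possible because each group is 1 library and the labels carry no replicate numbers. With 1 library per group, a difference between libraries cannot be told apart from a difference between groups, and low counts limit S100a4 and S100a6 in naive T cells and S100a8 and S100a9 outside neutrophils. Counts of members were taken over 18 settings and ratios over at most 16, and 4 called values changed direction. Aged over young ratios of S100a8 and S100a9 in T, B and NK cells had values at 13 only. Each of the 3 ways to subtract free RNA left no young level of them. Subtracting free RNA with barcodes of 20 to 100 UMIs, or by the haemoglobin of the class sum, was added after the data were seen. With free RNA subtracted in each of 3 ways, S100a8 in memory CD4 T cells fell to a ratio of 0, and with the barcodes of 20 to 100 UMIs its aged+AA over aged ratio in CD8 T cells was 2.41. The count of members higher in aged NK cells was 2 in place of 4 at the 5% mitochondrial limit, with no marker UMI of other classes, with no haemoglobin limit, when centred and with free RNA subtracted. In aged B cells it was 2 with free RNA subtracted by the median cell or the class sum. Members lower in aged+AA neutrophils numbered 2 without doublet removal, with free RNA subtracted and at 1.5-fold, and 0 with no marker UMI of other classes. In NK cells 1 was lower with free RNA subtracted. At 1.5-fold, 6 members were lower in aged+AA T cells and 7 in monocytes. Except when centred, the share of all genes was not computed for these settings, so the counts above have no background. Aged over young monocytes had no value at the 5% mitochondrial limit or with other classes at 0 marker UMIs, since under 50 young cells were left. The cause of these changes was not tested.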

Other observations

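Gates for dendritic cells and basophils were chosen after the data had been seen. Aged dendritic cells held S100a4 at 1640.4 CPM (1505 to 1784), S100a10 at 1217 CPM and S100a11 at 1172 CPM, with S100a8 at 39.3 CPM, where free RNA could give 40.4 CPM. Aged basophils, granulocytes of the allergic response, held S100a10 at 1706 CPM (1534 to 1892) and S100a11 at 1410.5 CPM, but S100a4 with 3 UMIs in 82 cells.

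Called barcodes with under 250 genes, which entered no comparison, held S100a13 at 23.7, 8.78 and 9.03 CPM in the order young, aged, aged+AA. In the young library S100a13 had 244 UMIs there, in 119 of 1179 barcodes, while S100a10 had 26.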
